A study of Mus musculus with 24 samples.

Results

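The tropomyosins, calponins and transgelins were described as 3 related families of proteins that lie along actin filaments. The members were all probes of the deposited bead table whose gene symbol was Tpm1, Tpm2, Tpm3, Tpm4, Cnn1, Cnn2, Cnn3, Tagln or Tagln2. Of these 9 genes, 7 had a probe under their symbol, and together they had 13 of the 25697 probes. No probe carried the symbol Tpm4 or Tagln2, so the expression of those genes was not analysed here. Expression was measured on 24 Illumina bead arrays of RNA extracted from the caudal end, the part not yet segmented, of mouse embryos. The 6 groups of 4 arrays were Srf knockout embryos and control embryos at each of 3 embryonic stages, labelled E8.5, E8.75 and E9.0. The question was which transcripts differ when serum response factor is lost from the mesoderm of the elongating body axis. The strain label was C57Bl/6 for all arrays. Knockout embryos carried the flex1 allele of Srf on both chromosomes together with T:cre, a Cre recombinase under the T (brachyury) gene, so the deletion is limited to cells of the primitive streak and nascent mesoderm and their descendants. Their genotype label was Srf(-/-). Control embryos were littermates that the titles call wt and the genotype label calls Srf(+/-). The parents of both were described as carrying 1 flex1 allele and T:cre on both chromosomes, so the controls carried T:cre as well. The labels do not say whether an array holds 1 embryo or a pool.

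Tropomyosins are coiled-coil dimers that run along the groove of the actin filament and set which myosins, cofilins and formins can act on it, and alternative promoters and splicing give muscle and nonmuscle isoforms of each gene. Calponins bind actin and tropomyosin and slow the myosin ATPase. Cnn1 and Tagln, also called SM22 alpha, are classical markers of differentiated smooth muscle, and Tagln crosslinks actin filaments. Many genes of these families are known targets of serum response factor, which binds a DNA element called the CArG box together with actin-sensing MRTF cofactors.

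The upstream sequences of the members that changed are shown first. RefSeq promoter windows of build GRCm38.p6, from 250 bases before to 50 bases after a transcript start, matched 8 of the 9 members with 9 windows, and Tagln was not matched. The windows were searched for the CArG box, which is 10 bases long and reads the same on both strands. An exact match stood in 1 of the 9 windows, that of Cnn2, and in 535 of 32851 RefSeq windows of the same length (1.63%). For 4 of the 9 windows, those of Tpm1, Tpm2, Cnn1 and 1 of 2 for Tpm3, the start lies inside the annotated gene and not at its outer end. The Cnn2 match lay 56 to 47 bases before the start, where the annotated gene begins, at chr10:79988544-79988553, and it contains the letters TATAA, so it overlaps a TATA-like run. The Tpm1 window held 2 sites that differ from the motif by 1 letter, at chr9:67049425-67049434 and chr9:67049284-67049293, and the first of them contains the letters TATATA. Windows with an exact site or one that differs by 1 letter made up 21.1% of all windows. The 250 bases before each start are printed 5′ to 3′ on the strand of the gene, with the Cnn2 match and the Tpm1 sites that differ by 1 letter in capitals. The Cnn2 stretch is chr10:79988350-79988599 on the plus strand and the Tpm1 stretch is chr9:67049214-67049463 on the minus strand. The Tpm1 start used lies 459 bases inside the annotated gene, so the whole Tpm1 stretch and both of its sites lie within the gene.
Cnn2: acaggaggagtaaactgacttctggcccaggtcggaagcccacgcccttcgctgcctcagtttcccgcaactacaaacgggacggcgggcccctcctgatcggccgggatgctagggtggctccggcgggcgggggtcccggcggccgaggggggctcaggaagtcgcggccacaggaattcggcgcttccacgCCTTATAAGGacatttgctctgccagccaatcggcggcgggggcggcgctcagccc
Tpm1: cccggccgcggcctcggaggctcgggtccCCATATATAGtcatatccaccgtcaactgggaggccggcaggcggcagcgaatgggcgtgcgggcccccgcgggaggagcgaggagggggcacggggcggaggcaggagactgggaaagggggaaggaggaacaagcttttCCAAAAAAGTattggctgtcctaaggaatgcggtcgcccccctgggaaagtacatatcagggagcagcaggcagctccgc
Apart from Tpm3, whose windows hold only sites that differ by 1 letter, the other matched members had no such site in these windows. A match is a description of the letters and not a measured binding site.

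Median bead intensity per array ran from 36.8 to 39.6 in knockouts and 38.3 to 45.9 in controls at E8.5. It ran from 147.5 to 173.3 in knockouts and 145.1 to 166.4 in controls at E8.75, and from 36.8 to 38.9 in knockouts and 37.8 to 38.9 in controls at E9.0. All 8 arrays of E8.75 were bright, so at that stage the stage and the brightness cannot be told apart. The number of arrays limits the precision, and the median within-group SD over probes was 0.19, 0.26 and 0.16 on the log2 scale at the 3 stages. The targeted gene Srf (ILMN_2988299) was lower in knockouts by 0.97 ± 0.13 on the log2 scale over the 3 stages (SE, limma adjusted p = 0.000143). By stage it stood at 46.9%, 49.8% and 56.9% of the control level, with limma adjusted p of 0.239, 0.0523 and 0.0235. The groups did not overlap at E8.5 or E9.0, but at E8.75 the array labelled control replicate 4 read 8.10, below the 8.51 of knockout replicate 2, so Srf did not set that array apart from the knockouts. Without it the E8.75 log2 fold changes were -1.50 for Cnn2 and -0.69 for Tpm1, and both were called (limma adjusted p = 0.00293 and 0.0383). The Srf call at E9.0 was lost without E9.0 control replicate 3 (0.0508) or 4 (0.0676), without knockout replicate 3 (0.0745) and with a median shift (0.0952). A second Srf probe, ILMN_1242533, stood at 73.6% of the control level at E8.5 and 70.1% at E9.0, and only E9.0 was called (limma adjusted p = 0.0235). At E8.75 it was detected on 0 of 4 arrays of either group. Its groups overlapped at every stage, and over the stages it fell by 0.37 ± 0.08 on the log2 scale (SE, limma adjusted p = 0.00934). The position of either probe in the deleted gene was not analysed here. Of 10 caudal end markers, such as Tbx6, Wnt3a and Cyp26a1, 8 were measured and 0 were called at any stage by limma, with 1 at an unadjusted p under 0.05, at E9.0. T and Msgn1 had no probe. In whole tissue, fewer cells of a type and less RNA per cell cannot be told apart.

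Among the measured members, Cnn2 and Tpm1 passed the test as lower in the knockouts at E8.75 and E9.0, and were lower without passing at E8.5. No probe of Tpm2, Tpm3, Cnn3 or Tagln passed the test at any stage. Of the 13 probes, 8 probes of 6 genes were detected (p under 0.05) on at least 4 arrays and were tested, which is 61.5% against 58.1% of all probes. The 5 others were the only Cnn1 probe (ILMN_1221148), Tpm2 ILMN_2787172 and Tpm3 ILMN_2426965, each detected on 0 of 24 arrays, and Tpm3 ILMN_2426966 and ILMN_2426967, each detected on 1 array. Normalized log2 intensity of Cnn1, the smooth muscle calponin, ran from 4.31 to 4.66 in knockouts and from 4.32 to 4.63 in controls, which is at background. Each probe was tested with limma over 14927 probes, and a probe was called at a Benjamini-Hochberg adjusted p under 0.05.

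At E8.5, 0 of 8 member probes were called lower, where 0.0067% of all tested probes were, and 0 were called higher, where 0% were. At E8.75, 2 probes were called lower, the bright Cnn2 probe and Tpm1, against 0.141% of all probes, and 0 were called higher, against 0.268%. At E9.0, 3 were called lower, both Cnn2 probes and Tpm1, against 5.38% of all probes, and 0 were called higher, against 6.32%. Averaged over the stages the same 3 probes were called lower, against 2.75% of all probes, and 0 were called higher, against 3.68%. The knockout arrays all lay below the control arrays at every stage for Cnn2 (ILMN_1226666) and Tpm1, which 0.0737% of all probes did. The median log2 fold change over the 8 probes was -0.26, -0.19 and -0.44 in stage order, and -0.0014, -0.0058 and -0.0027 over all tested probes. At E9.0 that median was -0.19 with an offset of 50, -0.20 with the stricter detection filter, -0.26 with the deposited normalized values and -0.31 with a median shift. The E9.0 value of -0.44 lies between Cnn2 ILMN_2596369 (-0.47) and Tagln (-0.42), each detected on 0 of 4 E9.0 knockout arrays. At that stage 5 of the 8 probes were lower in knockouts, while Cnn3 (0.11) and the Tpm2 probes (0.23 and 0.34) were higher, none of them called. At an unadjusted p under 0.05 by limma, 2 member probes passed at the first stage (1.97% of all probes), 2 at the second (11.4%), 4 at the third (25.5%) and 3 averaged over the stages (22.5%), all of them lower in knockouts.

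**Figure D1:**
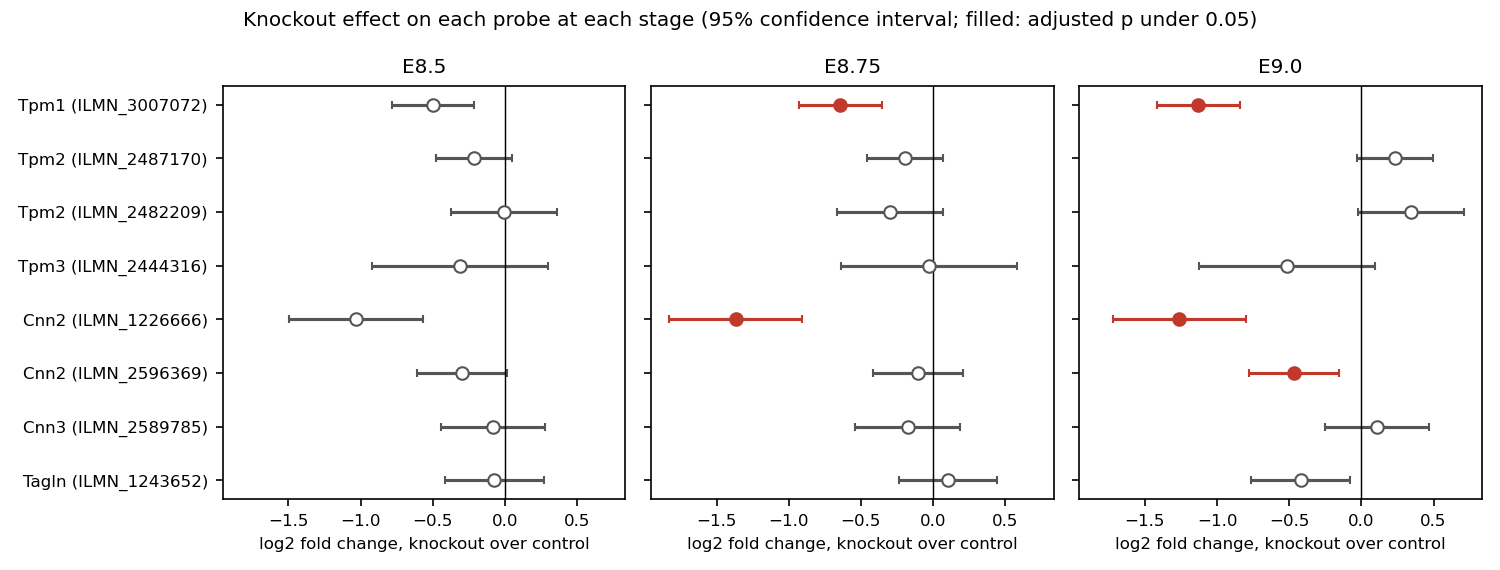
Log2 fold change (knockout over control, horizontal axis) of the 8 tested probes, with 1 panel for each stage. Points are limma estimates, bars are 95% confidence intervals over 4 arrays per group, and filled points have an adjusted p under 0.05. Cnn2 ILMN_1226666 lies between -1.03 and -1.37 and Tpm1 between -0.50 and -1.13, while the intervals of Tpm2, Tpm3 and Cnn3 include 0 at every stage.

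Cnn2, the broadly expressed calponin of nonmuscle and smooth muscle cells, fell in the knockouts at the later stages. Its bright probe (ILMN_1226666, gene at chr10:79988600-79995400) was detected on all 24 arrays. At E8.5 its normalized log2 intensity was 5.21, 5.77, 5.16 and 5.88 in knockouts, against 6.32, 6.58, 6.61 and 6.63 in controls. All 4 knockout arrays lay below all 4 control arrays, as they did for 1.11% of all tested probes. The log2 fold change was -1.03 ± 0.22 (SE, n = 4 each), 48.9% of the control level, and did not pass over all probes (limma adjusted p = 0.239). Without the E8.75 arrays it passed at 0.0473, and with array weights at 0.0433.

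At E8.75 Cnn2 read 5.87, 6.60, 5.22 and 5.79 in knockouts, against 7.52, 7.28, 7.30 and 6.86 in controls. The groups did not overlap, which was so for 1.82% of all probes in this direction. Cnn2 fell by 1.37 on the log2 scale, with an SE of 0.22 (n = 4 each, limma adjusted p = 0.00325), to 38.7% of the control level. With only the arrays of that stage in the fit the call was lost (adjusted p = 0.271), and 2 of all tested probes were then called, against 61. At E9.0 Cnn2 read 5.27, 5.05, 4.98 and 5.03 in knockouts, against 5.81, 6.46, 6.60 and 6.51 in controls. The knockout arrays were again all lower, as for 11.7% of all probes, with control replicate 1 the lowest control. Cnn2 fell by 1.26 on the log2 scale, with an SE of 0.22 (n = 4 each, limma adjusted p = 0.000654), to 41.7% of the control level.

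Averaged over the stages Cnn2 fell by 1.22 on the log2 scale, with an SE of 0.13 and a limma adjusted p of 3.19e-06. The size changed with the processing: with the deposited normalized values the log2 fold change was -0.58, -0.87 and -0.66 in stage order and -0.70 over the stages, and with an offset of 50 it was -0.67, -0.98, -0.77 and -0.81. By group mean its log2 intensity ran upwards through 5.08 in E9.0 knockouts, 5.50 in E8.5 knockouts, 5.87 in E8.75 knockouts, 6.34 in E9.0 controls, 6.54 in E8.5 controls and 7.24 in E8.75 controls. Neighbouring groups in that order overlapped, except that every E8.75 control lay above every E8.5 control. A second Cnn2 probe, ILMN_2596369, was detected on 8 of 24 arrays. At E9.0 it read 4.66, 4.51, 4.33 and 4.37 in knockouts, detected on 0 of 4, against 5.02, 4.88, 4.81 and 5.04 in controls, detected on 4 of 4. It was at least 1.09-fold lower in knockouts (limma adjusted p = 0.0439), and that call was kept under 6 of 16 alternatives. It was lost without any 1 of the 4 E9.0 controls (0.0533 to 0.116) and without E9.0 knockout replicate 2, 3 or 4 (0.079 to 0.111). Its log2 fold changes were -0.30 at E8.5 and -0.10 at E8.75, with adjusted p of 1.00 and 0.862 by limma. Averaged over the stages it was -0.29 ± 0.09 (SE, limma adjusted p = 0.0453), a call kept under 10 of 31 alternatives (adjusted p by limma 0.015 to 0.251).

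Cnn3, the acidic calponin of nonmuscle cells (ILMN_2589785, chr3:121426541-121458205), was detected on every array. Its log2 intensity ran from 10.04 to 10.33 in knockouts and 10.07 to 10.47 in controls at E8.5. The ranges were 10.01 to 10.62 in knockouts and 10.06 to 11.03 in controls at E8.75, and 9.77 to 10.49 in knockouts and 9.83 to 10.10 in controls at E9.0. The groups overlapped at each stage. Averaged over the stages the log2 fold change was -0.05, with a 95% interval of -0.26 to 0.16 (limma adjusted p = 0.823).

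Tpm1, the alpha-tropomyosin gene of striated and smooth muscle that also gives nonmuscle isoforms, was the tropomyosin called in the knockouts. Its 1 probe (ILMN_3007072, gene at chr9:67022590-67049672) was detected on all arrays. At E8.5 its log2 intensity was 10.98, 11.03, 10.76 and 10.64 in knockouts, against 11.52, 11.12, 11.44 and 11.31 in controls. Every knockout array lay below every control array, as for 1.11% of all probes. The difference of -0.50 ± 0.14 (SE, n = 4 each) did not pass over all probes (limma adjusted p = 1.00). At E8.75 Tpm1 read 11.33, 11.30, 11.35 and 11.10 in knockouts, against 11.69, 12.13, 12.06 and 11.77 in controls. The groups did not overlap, as for 1.82% of all probes in this direction. Tpm1 fell by 0.64 on the log2 scale with an SE of 0.14 (limma adjusted p = 0.0347), to 64.1% of the control level. The E8.75 call did not hold when control replicate 2 (0.0598) or 3 (0.0818) was left out, nor when knockout replicate 1 (0.0791), 3 (0.075) or 4 (0.146) was. It was also lost with a median shift in place of quantile normalization (0.403), with only the E8.75 arrays in the fit (0.328) and with the replicate number as a block (0.0653).

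At E9.0 Tpm1 read 11.51, 11.04, 11.36 and 11.44 in knockouts, against 12.76, 12.48, 12.19 and 12.44 in controls. The lowest control stood above the highest knockout by more than the SD of either group, 0.21 in knockouts and 0.23 in controls. The knockout arrays were all lower for 11.7% of all probes at that stage. Tpm1 fell by 1.13 on the log2 scale with an SE of 0.14 (n = 4 each, limma adjusted p = 1.25e-05), to 45.7% of the control level. Over the stages it fell by 0.76 with an SE of 0.08 (limma adjusted p = 3.19e-06). Ordered by mean, the groups were E8.5 knockouts at 10.85, E8.75 knockouts at 11.27, E9.0 knockouts at 11.34, E8.5 controls at 11.35, E8.75 controls at 11.91 and E9.0 controls at 12.47. The E8.75 and E9.0 knockouts and the E8.5 controls overlapped one another, and no other neighbours in that order did.

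**Figure D2:**
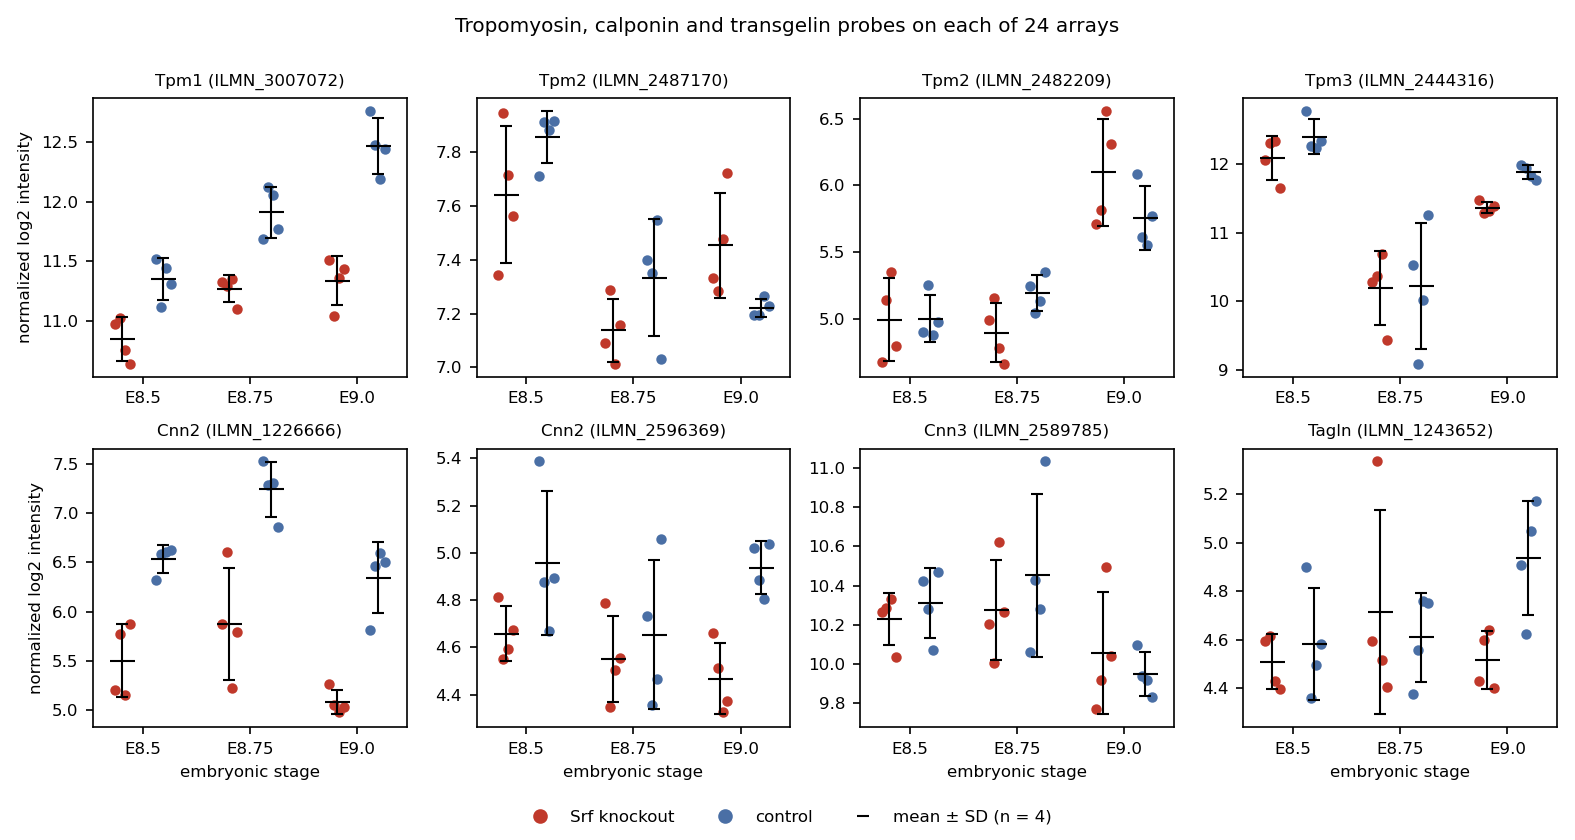
Normalized log2 intensity (vertical axis, own scale in each panel) of each tested probe on each array, by embryonic stage. Red points are Srf knockouts and blue points controls, with mean ± SD over 4 arrays. Tpm1 climbs in controls to 12.47 at E9.0 and stands at 11.34 in E9.0 knockouts, the bright Cnn2 probe is lower in knockouts at all 3 stages, and Cnn3 overlaps throughout.

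Tpm2, the beta-tropomyosin gene (chr4:43513726-43523583), had 2 tested probes and neither was called between genotypes, except that with array weights ILMN_2487170 was called lower at E8.75 (-0.40, limma adjusted p = 0.043). For ILMN_2487170 the E9.0 values were 7.33, 7.28, 7.48 and 7.72 in knockouts, against 7.20, 7.19, 7.26 and 7.23 in controls. Every knockout array lay above every control array, as for 12.9% of all probes, by 0.23 ± 0.13 on the log2 scale (SE, limma adjusted p = 0.267). At the earlier stages the differences were -0.21 and -0.19, and over the stages the mean was -0.06 with a 95% interval of -0.21 to 0.09. For ILMN_2482209, detected on 20 arrays, E9.0 values were 5.71, 5.82, 6.56 and 6.31 in knockouts, against 6.09, 5.61, 5.55 and 5.77 in controls. These overlapped, with a difference of 0.34 ± 0.18 (SE, limma adjusted p = 0.235). The effects on the 2 probes differed by -0.07 over the stages (exact permutation p = 0.49, two-sided, adjusted over 2 pairs of probes).

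Tpm3, a gene of slow muscle and nonmuscle tropomyosins (ILMN_2444316, chr3:90072651-90100902), read 11.47, 11.29, 11.31 and 11.38 in E9.0 knockouts, against 11.98, 11.93, 11.82 and 11.77 in E9.0 controls. All knockouts lay below all controls, as for 11.7% of all probes, and the difference was -0.51 ± 0.30 (SE, n = 4 each, limma adjusted p = 0.292). The fit shares 1 spread over all stages, and the within-group SD of this probe was 0.28, 0.75 and 0.09 at the 3 stages. With only the E9.0 arrays in the fit the adjusted p was 0.00364, without the E8.75 arrays 0.0189 and with array weights 0.045. At E8.75 the values spread from 9.44 to 10.69 in knockouts and from 9.09 to 11.26 in controls. The log2 fold change there was -0.03, and at E8.5 it was -0.31.

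Tagln, the smooth muscle transgelin (ILMN_1243652, chr9:45929628-45936058), stood near background and was detected on 5 of 24 arrays. At E9.0 it read 4.43, 4.60, 4.64 and 4.40 in knockouts, detected on 0 of 4, against 4.91, 4.63, 5.05 and 5.17 in controls, detected on 3 of 4. The groups overlapped narrowly, since 1 control lay at 4.63 and 1 knockout at 4.64. Against the lowest detected signal of the knockout arrays the control mean was 1.09-fold higher, and the difference was not called (limma adjusted p = 0.105). With only the E9.0 arrays it passed (0.0341), as it did without the E8.75 arrays (0.0308) and with array weights (0.00772). At E8.5 and E8.75 the log2 fold changes were -0.07 and 0.10, and at E8.75 the highest value, 5.34, was in a knockout.

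Whether members of 1 family differed in their response was tested on the difference between their brightest probes within each array, averaged over stages. Genotype labels were permuted exactly within stages, two-sided, and p was adjusted over 4 pairs. The effect on Cnn2 was lower than that on Cnn3 by 1.17 on the log2 scale (difference -1.17, exact permutation adjusted p = 0.000327). Its size changed with the processing, and over the alternatives this difference ran from -1.28 to -0.65. The effect on Tpm1 minus that on Tpm2 was -0.70 (exact permutation adjusted p = 0.000327), with -0.29, -0.45 and -1.36 in stage order. At E9.0 the within-array difference of Tpm1 over Tpm2 ran from 3.72 to 4.18 in knockouts and from 4.93 to 5.56 in controls.

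Tpm1 minus Tpm3 gave -0.47 (exact permutation adjusted p = 0.0281). This call was lost without E8.75 control replicate 2 (-0.32, 0.0759) or 3 (0.0618), and without E8.75 knockout replicate 1 (0.0626), 2 (0.0706) or 3 (0.084). Tpm2 minus Tpm3 gave 0.23 (exact permutation adjusted p = 0.327), and over the alternatives this difference ran from 0.08 to 0.35. A test of the 2 Cnn2 probes against each other is not read here, since the dim one was at background in the E9.0 knockouts and at E8.75.

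**Figure D3:**
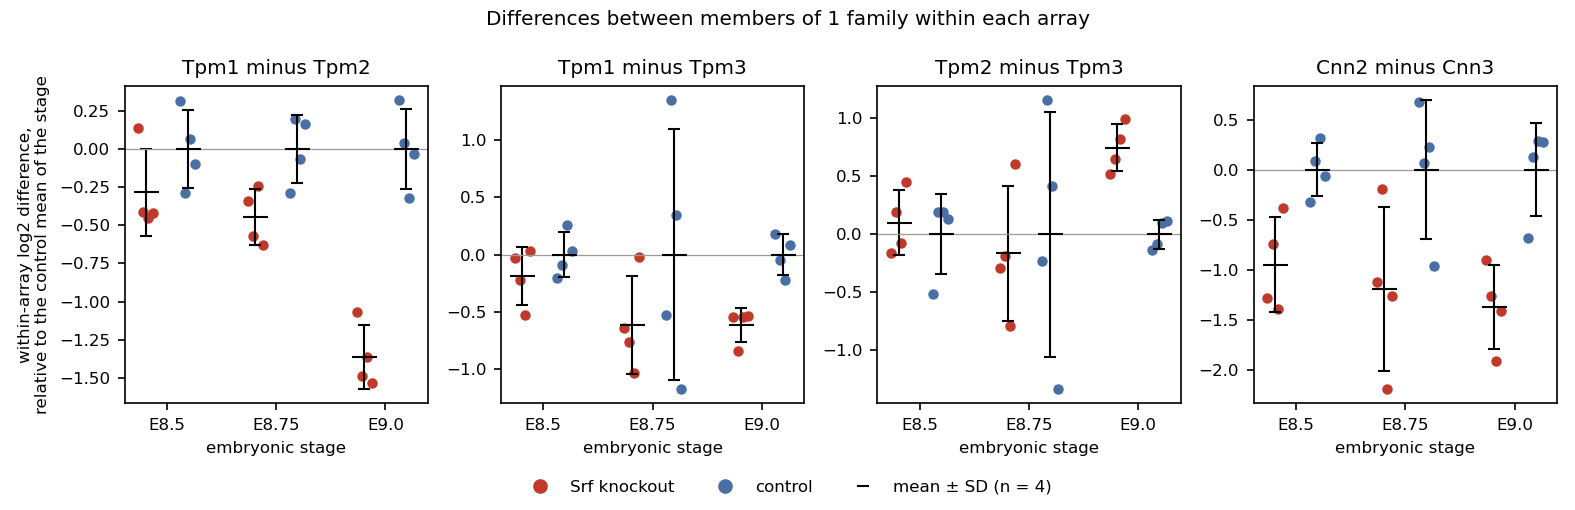
Within-array log2 difference between the brightest probes of 2 members (vertical axis, with the control mean of each stage set to 0) by embryonic stage. Points are arrays, red for knockouts and blue for controls, with mean ± SD over 4 arrays. Tpm1 over Tpm2 is lower in the E9.0 knockouts, with a mean difference of -1.36, and the E8.75 controls are spread widely where Tpm3 enters.

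A moderated F test asked whether the genotype difference changed with stage. It called 0 of 8 member probes by limma, against 0.75% of all tested probes. The smallest adjusted p was that of Tpm1 (0.209, unadjusted p = 0.00973), whose differences were -0.50, -0.64 and -1.13 in stage order. Unadjusted p was also under 0.05 for Tpm2 ILMN_2487170 (0.0351, adjusted p = 0.354 by limma). For Cnn2 ILMN_1226666, with differences of -1.03, -1.37 and -1.26 in stage order, the unadjusted p was 0.56 (adjusted p = 0.868 by limma). With array weights 2 member probes were called.

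In controls alone, between E9.0 and E8.5, Tpm1 and 1 Tpm2 probe rose and the other Tpm2 probe fell. These were 2 of 8 probes called higher, against 13.4% of all tested probes, and 1 of 8 called lower, against 13.3%. Tpm1 was 2.17-fold higher at E9.0, with a log2 difference of 1.12 ± 0.14 (SE, limma adjusted p = 3.74e-06). Tpm2 ILMN_2487170 read 7.20, 7.19, 7.26 and 7.23 in E9.0 controls, against 7.71, 7.91, 7.88 and 7.91 in E8.5 controls. It fell by 0.63 on the log2 scale with an SE of 0.13 (limma adjusted p = 0.000778). Tpm2 ILMN_2482209 read 6.09, 5.61, 5.55 and 5.77 in E9.0 controls, against 4.90, 5.25, 4.87 and 4.97 in E8.5 controls. It rose by 0.76 ± 0.18 (SE, limma adjusted p = 0.0028), opposite to the first probe.

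The log2 difference between the 2 Tpm2 probes was 1.11 to 1.71 in E9.0 controls and 2.66 to 3.00 in E8.5 controls, a difference of -1.39 (exact permutation p = 0.0286, two-sided, the smallest that 4 against 4 can give). This pair was looked at after its values were seen. Which transcripts of Tpm2 each probe matches was not analysed here. The other members were not called, with log2 differences of -0.19 for Cnn2, -0.36 for Cnn3, -0.52 for Tpm3 and 0.35 for Tagln. Tpm3 was called lower with a median shift (-0.85, limma adjusted p = 0.028), with only the groups compared (0.00747), without the E8.75 arrays (0.00914) and with array weights (0.0211). Cnn3 was called lower under the last 3 of these (limma adjusted p = 0.0223, 0.0469 and 0.0155), and Tagln was called higher without the E8.75 arrays (0.0405) and with array weights (0.00642). Markers of other cells moved between the same control stages. Yolk sac endoderm markers summed to 198.4 to 220.7 in E9.0 controls and 4819 to 15750 in E8.5 controls, and primitive erythroid markers to 61135 to 100462 in E9.0 controls and 728.4 to 49393 in E8.5 controls, and their part in these stage differences was not tested.

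Genes that act with the members on actin filaments were set beside them in 5 lists, with the brightest probe of each gene. Of 34 measured genes, 0 were called at E8.5 and 0 at E8.75, against 0.0067% and 0% of all probes lower and higher at E8.5 and 0.141% and 0.268% at E8.75. At an unadjusted p under 0.05 by limma, 2 partner genes passed at E8.5 (1.97% of all probes), 5 at E8.75 (11.4%), 12 at E9.0 (25.5%) and 8 averaged over the stages (22.5%). At E9.0, 6 were called lower and 1 higher, against 5.38% and 6.32% of all probes. Of the tropomodulins and leiomodins, which cap or nucleate filaments coated with tropomyosin, 4 of 7 were measured. Tmod1, which caps filament ends in muscle and in the red cell membrane skeleton, was detected on 0 of 4 knockout arrays and 4 of 4 control arrays at E9.0. It was at least 2.22-fold lower in knockouts (limma adjusted p = 0.00224), with measured means of 4.47 in knockouts and 5.96 in controls.

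Of nonmuscle myosin II and its regulators, 9 of 14 were measured and 2 fell at E9.0, with a list median of -0.32 on the log2 scale against 0.006 over all genes. Mylk, the kinase that activates myosin light chains, fell by 0.71 with an SE of 0.16 (limma adjusted p = 0.00538), and the light chain Myl12a fell by 0.52 (limma adjusted p = 0.0403). The Myl12a call did not hold when E9.0 control replicate 1 (0.11), 3 (0.0789) or 4 (0.087) or knockout replicate 3 (0.145) or 4 (0.12) was left out. Of smooth muscle genes and actin side binders, 7 of 12 were measured. Vcl, the vinculin of adhesions, fell by 0.67 with an SE of 0.12 (limma adjusted p = 0.00069), and Smtnl2, a smoothelin-like gene, rose by 0.59 ± 0.16 (limma adjusted p = 0.0187). The Smtnl2 call was lost when E9.0 control replicate 1 (0.0583), 3 (0.0567) or 4 (0.0655) or knockout replicate 1 (0.0546) or 2 (0.0753) was left out, and with a median shift (0.493). Acta2, the smooth muscle actin, fell by 0.73 averaged over the stages (limma adjusted p = 0.0176), with -0.78, -0.98 and -0.45 in stage order, none called alone. Myh11 and Synpo2, of smooth muscle cells, were not detected on any array.

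Another list held Tagln3, Lims1, Parva, Parvb, Actn1 and Actn4. Of these, 4 of 6 were measured and 0 were called by limma at E9.0 (1 at an unadjusted p under 0.05), with a median of -0.27. Of stress fibre and formin genes, 10 of 11 were measured with a median of -0.16 at E9.0. Cfl1, the cofilin that severs filaments, fell by 0.72 with an SE of 0.15 (limma adjusted p = 0.00233), and the formin Diaph1 fell by 0.59 (limma adjusted p = 0.0363). The Diaph1 call was lost without any 1 E9.0 control (0.0631 to 0.0825) or without knockout replicate 1 (0.0809), 2 (0.064) or 3 (0.0935).

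**Figure D4:**
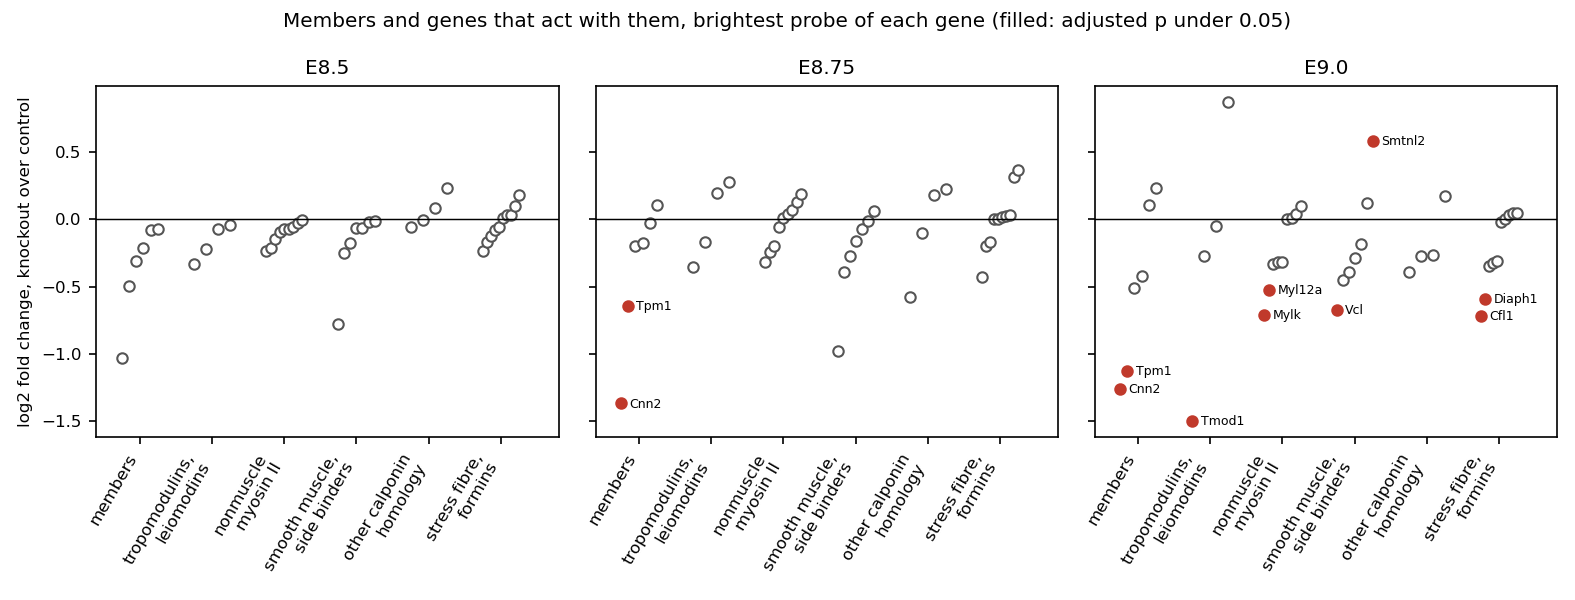
Log2 fold change (knockout over control, vertical axis) of the brightest probe of each measured member and of each gene of the 5 partner lists, with 1 panel for each stage. Filled points have a limma adjusted p under 0.05. Cnn2 and Tpm1 are the members filled at E8.75 and E9.0, and 7 partner genes are filled at E9.0, with Tmod1 at background in the knockouts.

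Some markers of other cells were also called between the groups. Of all tested probes, 5.38% were called lower at E9.0, and 0.141% lower and 0.268% higher at E8.75. At E9.0, 7 of 9 measured primitive erythroid markers were called lower, with a median of -3.30 on the log2 scale. Their summed normalized intensity was 1177 to 33047 in knockouts and 61135 to 100462 in controls. It was 240.4 to 4675 in knockouts and 728.4 to 49393 in controls at E8.5, and 2493 to 30909 in knockouts and 16583 to 38354 in controls at E8.75, with 0 called by limma at either and 0 and 1 at an unadjusted p under 0.05. At E8.75, 5 of 8 yolk sac endoderm markers were called higher, and they summed to 2104 to 13897 in knockouts and 400.1 to 1518 in controls. Of 8 endothelial markers, 1 was called lower at E9.0, and they summed to 1130 to 2299 in knockouts and 1947 to 2595 in controls. Of 5 measured cardiomyocyte markers 1 was called lower, Actc1, at least 1.43-fold at E8.75 and at least 2.11-fold at E9.0, and the list summed to 225.7 to 242.1 in E9.0 knockouts and 243.2 to 276.1 in E9.0 controls. Myl7 and Myh7 of cardiomyocytes and Myf5, Tnnc2 and Chrna1 of skeletal muscle were not detected on any array. Of 6 notochord and node markers, 2 were called lower at E9.0. None of 4 skeletal muscle, 2 neural tube and 7 lateral plate markers measured was called at any stage by limma, with 2 lateral plate markers at an unadjusted p under 0.05 at E9.0. The part of these cell markers in the differences of Cnn2, Tpm1 and the partner genes was not tested.

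The probes whose pattern over the 24 arrays was most like that of each called member were listed as a description, after subtracting the mean of each stage. For Cnn2 these were Fhl2 (Pearson r = 0.902), Mocs1 (0.893) and Srf (0.86). For Tpm1 they were Wdr1 (r = 0.938), Mocs1 (0.923) and Atp2a2 (0.90). Both genotypes and all 3 stages enter each r, and the values come from the same arrays. The genotype difference was not subtracted, so a shared one enters each r. Each listed probe was itself called lower in knockouts over the stages by limma, from -0.35 for Atp2a2 to -1.26 for Fhl2 on the log2 scale.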

How the data were processed

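Per the labels, caudal end RNA was extracted with Trizol, cleaned with DNase treatment and made into biotinylated cRNA. The deposited table gives mean bead intensity on a linear scale. Beside it stands a detection p-value for every probe on every array, per the file headers. The submitters' processing notes name GenomeStudio without a version. With limma 3.58.1 in R 4.3.3, neqc corrected the background by normexp (its control mean and variance inferred from detection p, with 16 added), quantile normalized the arrays and took log2. Probes detected (p under 0.05) on at least 4 arrays, 14927 of 25697, entered 1 limma model of the 6 group means (18 residual and 5.692 prior degrees of freedom). Each probe was a feature of its own, and p was adjusted by Benjamini-Hochberg over all of them. Where no array of a group was above background, the text gives a fold against the lowest detected signal of those arrays, as "at least" for called probes. This fold is not a confidence bound. Gene coordinates are those of RefSeq on GRCm38.p6, matched by symbol. Exact permutations and the motif search ran in Python 3.11.15, and the model was checked on simulated data. Nothing in the labels says that replicates were separate embryos, so p-values cover the spread of these samples only, which may be technical. Named were all member probes, Srf, the partner genes called (at most 4 per list) and the 3 most alike probes of each called member. The members, lists and tests were chosen with earlier results of these data known. Alternatives were the deposited normalized values, a median shift, an offset of 50, no or a stricter detection filter (p under 0.01 on 8 arrays), only the groups compared, no E8.75 arrays, a replicate block, array weights, 1 probe per gene and leaving out each array.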

Additional observations from a re-analysis of the deposited data

Results flagged for a closer look

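Of 48 groups of 4 arrays, 6 for each tested probe, 3 had 1 array whose gap to the others, as a share of the group's range, was above Dixon's 95% critical value. Chance gives this in about 1 of 20 groups. All 3 were the same array, E8.5 control replicate 1. It was low for Cnn2 ILMN_1226666 at 6.32, with the nearest control at 6.58, and low for Tpm2 ILMN_2487170 at 7.71, with the nearest at 7.88. It was high for Tpm3 ILMN_2444316 at 12.77, with the nearest at 12.32. Without that array the E8.5 log2 fold changes were -1.10 for Cnn2, -0.26 for Tpm2 and -0.19 for Tpm3, and no member probe was called at that stage with or without it.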

How the results depend on the processing

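Cnn2 ILMN_1226666 and Tpm1 were called lower at E9.0 under all 18 alternatives and averaged over the stages under all 33, and Tpm1 was called higher in E9.0 than in E8.5 controls under all 17. The Cnn2 log2 fold change ran from -1.44 to -0.66 at E9.0 and from -1.30 to -0.70 over the stages, the smallest with the deposited values, while Tpm1 ran from -1.38 to -1.03 and from -0.86 to -0.72. No result changed direction past the threshold. The number of member probes called lower at E8.5 was 1 without the E8.75 arrays and 1 with array weights, against 0. At E8.75 it was 1 with a median shift, 0 with only the groups compared, 1 with the replicate block and 3 with array weights, which added Tpm2 ILMN_2487170, against 2. At E9.0 it was 5 with only the groups compared, 5 without the E8.75 arrays and 5 with array weights, against 3, the added probes being Tpm3 and Tagln. The E9.0 count was 2 at the lowest. The dim Cnn2 call there was lost with a median shift (0.356), an offset of 50 (0.0814) and no detection filter (0.0588, adjusted p by limma). Averaged over the stages the count ran from 2 to 4, and the dim Cnn2 call was lost with those settings and with the deposited values (limma adjusted p = 0.0672). Without the E8.75 arrays Tpm3 was also called averaged over the stages (adjusted p = 0.016 by limma). In E9.0 over E8.5 controls the member probes called lower numbered 2 with a median shift, against 1. They numbered 3 with only the groups compared, without the E8.75 arrays or with array weights. Member probes called higher numbered 1 with 1 probe per gene, against 2. They numbered 3 without the E8.75 arrays or with array weights, which added Tagln. The interaction called 2 with array weights, against 0. Leaving out 1 array at a time gave 0 to 0 lower, 1 to 2 and 2 to 3 in stage order and 2 to 3 averaged over the stages. It gave 1 to 1 lower and 2 to 2 higher between control stages, and 2 to 3 gene pairs. It also gave 1 to 1 probe pairs, that of Cnn2 with its dim probe. That pair is not read, since the dim probe was at background in the E9.0 knockouts and at E8.75. Among partner genes and Srf, Vcl at E9.0 and over the stages and Tmod1 at E9.0 were called under every alternative run. So was Srf (ILMN_2988299) over the stages, while the alternatives were not read for the second Srf probe. With a median shift the calls of Mylk (0.0702) and Cfl1 (0.0513) at E9.0 were lost (adjusted p by limma). Over the stages, Acta2 was lost with a median shift (0.0595) and without the E8.75 arrays (0.0767). The causes were not tested.

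Over all probes, 61 were called at E8.75, against 2 with only the groups compared, 34 with an offset of 50, 39 with the deposited values, 162 with a median shift, 707 with array weights and 18 to 148 without 1 array. At E9.0, 1746 were called, against 377 with a median shift, 2733 without the E8.75 arrays, 3075 with only the groups compared and 3807 with array weights. Averaged over the stages 959 were called, against 175 with a median shift, 1562 without the E8.75 arrays and 2281 with array weights. The interaction called 112, against 5 with a median shift, 38 with the replicate block, 213 without the E8.75 arrays, 1230 with array weights and 10 to 211 without 1 array. Between control stages 3980 were called, against 2248 with a median shift and 6417 with array weights.

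Same-numbered knockout and control arrays had correlations of their deviations from -0.234 to 0.398, with 2 of 12 over 0.1, and 3 of 12 matched their own number best. The 2 over 0.1 were E8.5 replicates 1 (0.398) and 3 (0.222), and each matched its own number best. The replicate numbers were therefore not shown to be unpaired at E8.5. With the number as a block, member probes called lower were 0, 1 and 3 in stage order. The block was not run for the control stages, the stricter filter drops the dim Cnn2 probe and Tagln, and dim probes near background limit what can be read of Cnn1 and Tagln.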
